A study of Mus musculus with 8 samples.

Results

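The genes described here are 48 that build autophagosomes or control the growth kinase complex mTORC1, taken by symbol from the 45777 genes of the deposited table. All 48 were found, and all 48 passed the low-count filter. They divide into 33 genes of the autophagy core and its cargo receptors and 15 genes of mTORC1 and its amino acid sensors. RNA sequencing was done on organoids of the mouse colon, which are epithelial crypts kept growing in a gel, from males that were 9 weeks old. In the KO group (4 libraries, replicates 5 to 8) Villin-Cre, which is active in the intestinal epithelium, had removed exons 2 to 4 of Reg3a, the gene of a secreted C-type lectin, from mice of the Reg3afl/fl line (Reg3aΔIEC). In the WT group (4 libraries, replicates 13 to 16) the organoids came from Reg3afl/fl mice, so both groups carry the floxed allele and only KO carries Cre. All were collected 3 days after passage, at passage 15 or earlier, without added treatment.

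Autophagy encloses cytoplasm in a double membrane and delivers it to the lysosome. The ULK kinase complex starts the process, a lipid kinase complex built around VPS34 marks the membrane, lipid transfer proteins enlarge it, and a pair of ubiquitin-like conjugation systems attaches ATG8 proteins to it, which bind the receptors that carry cargo. The kinase complex mTORC1, held on the lysosome by RAG GTPases when amino acids are plentiful and switched on there by RHEB, phosphorylates ULK1 and ATG13 and so holds autophagy back. In the intestine, autophagy genes are known for their part in Paneth and goblet cell secretion, and a variant of ATG16L1 is known from human Crohn's disease.

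Library totals lay between 37182098 and 49256171 counts, and the lowest count of any of these genes in any library was 14 (Rragd). Outside Rragd it was 150. Reg3a itself had 0 counts in all 8 libraries, which allows at most 0.0807 CPM (3 counts) in the shallowest library and covers counting error only, so the deletion could not be checked at the RNA level. The labels state in one place that 1 mouse per genotype was plated in 4 wells and in another that 3 mice per genotype were used, so p-values reflect only how these libraries scatter, possibly for technical reasons, and genotype cannot be told apart from mouse or organoid line. Epithelial markers were present (9 of 9 tested, summed FPKM 7007 to 7425 in KO and 6757 to 7173 in WT), and 2 of them, Vil1 and Cdx2, were higher in KO (edgeR adjusted p = 0.00208 and 0.000240). Markers of fibroblasts were near 0 (none of 7 could be tested, summed FPKM at most 0.0891 in KO and 0.0306 in WT, with Col1a2, Dcn and Lum at 0 throughout). Those of endothelium (1 of 6 tested, summed FPKM at most 0.735 in KO and 0.465 in WT, Emcn at 0 throughout) and of smooth muscle and glia (1 of 7 tested, at most 0.118 in KO and 0.156 in WT, with Cnn1, Sox10 and S100b at 0 throughout) were also low. Of 8 leukocyte genes 3 were tested and 1 (Cd68) was lower, a call that ended when any of 6 of the 8 libraries was left out (edgeR adjusted p = 0.0804 to 0.128) and with limma-voom (0.0610), with Cd3e at 0 throughout and a summed FPKM of 19.8 to 31.2 in KO and 21.9 to 29.9 in WT, most of it Cd68.

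Most of these genes differed little between the genotypes. Of the 48 genes 3 were higher in KO (Pik3c3, Ulk2 and Rptor) and 6 were lower (Atg14, Optn, Sqstm1, Atg101, Gabarapl1 and Map1lc3b), by edgeR's quasi-likelihood test with a Benjamini-Hochberg adjusted p under 0.05. That is 18.8% of them, beside 15.9% of all 14945 genes tested. By direction, 6.25% were higher beside 7.63% of all genes, and 12.5% were lower beside 8.26% of all genes, so the share called was near that of the whole table. The median log2 fold change was 0.0031 over the 48 genes and -0.0012 over all genes tested. Pik3c3 apart, no gene of the 48 moved by more than 0.31 on the log2 scale. In 5 of the 48 genes every KO library was above every WT library, a share near the 9.91% of all genes tested. In 9 of the 48 (18.8%) every KO library was below, a share above the 10.3% of all genes tested. These shares were not tested.

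**Figure D1:**
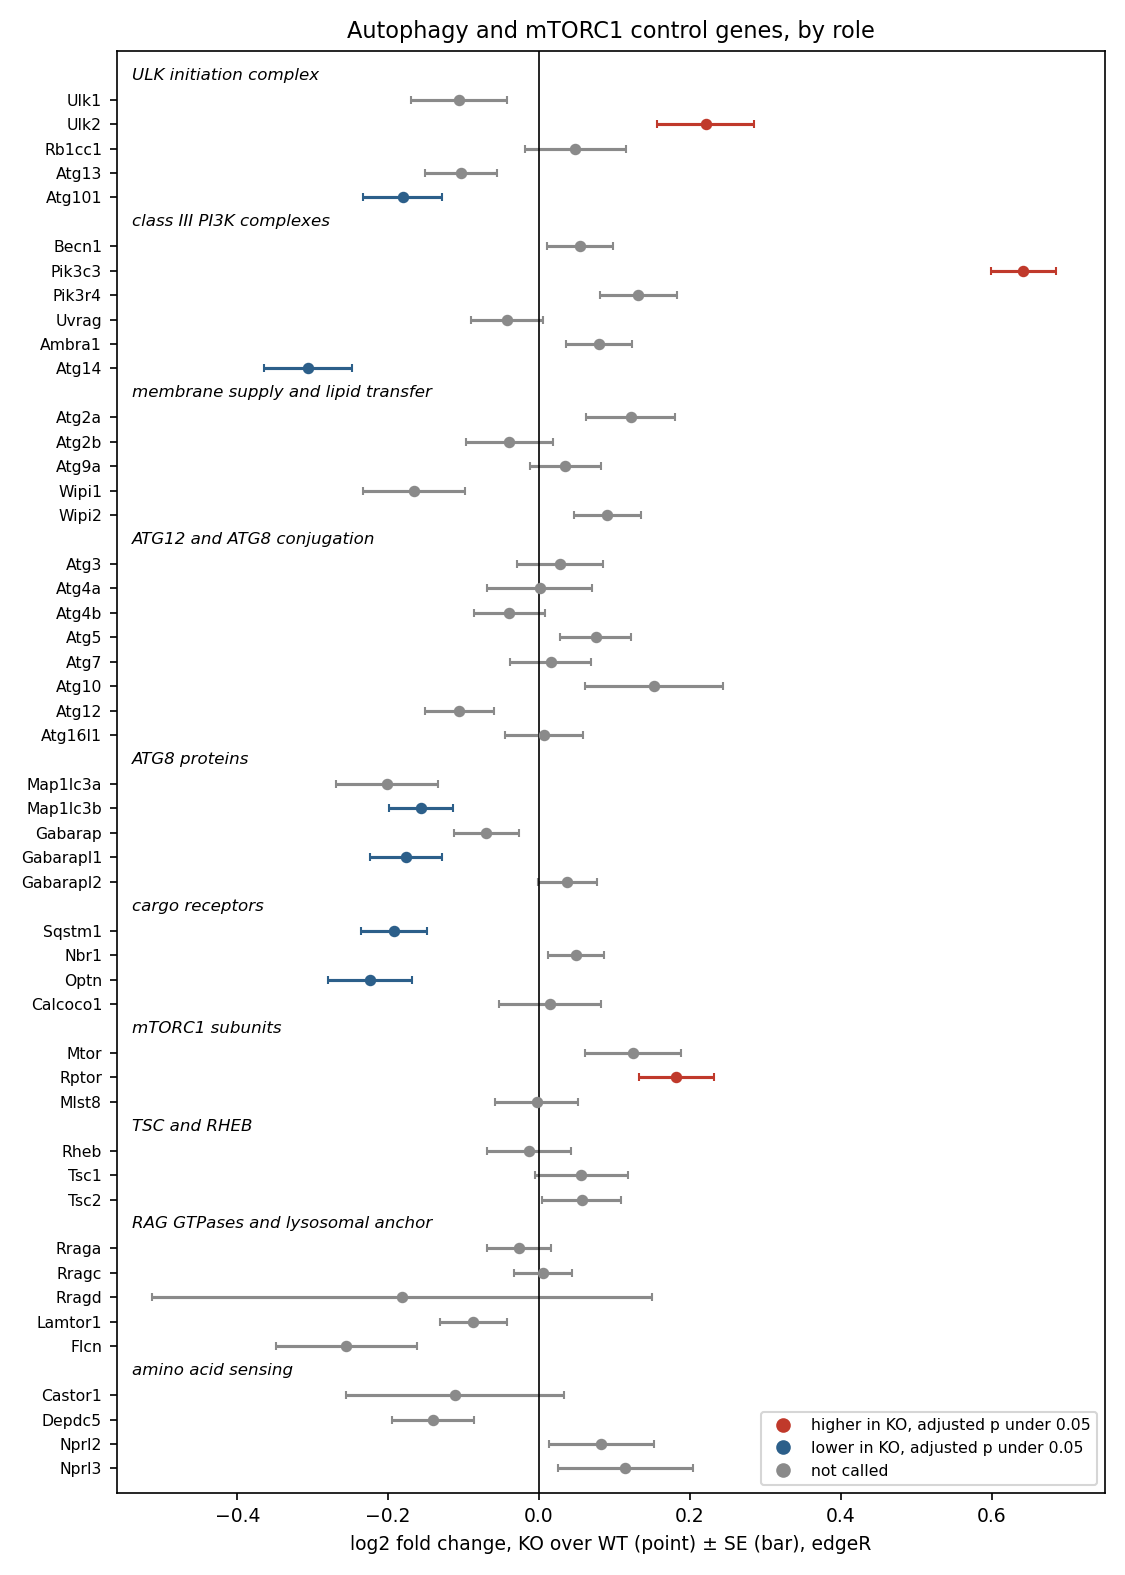
Log2 fold change of each gene, KO over WT (x axis, point, edgeR), with its SE (bar), for the 48 genes grouped by role down the page. Pik3c3 stands alone at 0.64, while the other 47 genes lie between -0.31 and 0.22.

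Of the 9 calls 8 lay in autophagy. Of its 33 genes 2 were higher and 6 lower (24.2% called, beside 15.9% of all genes tested), and the median log2 fold change was 0.0065. The calls of Pik3c3, Atg14 and Sqstm1 held without each library in turn. Those of Ulk2, Atg101, Map1lc3b, Gabarapl1 and Optn did not. Of the 15 mTORC1 genes 1 was higher and none lower (6.67% called), with a median of -0.0033. The median size of a change, regardless of sign, was 0.0902 on the log2 scale for the autophagy genes, 0.0869 for the mTORC1 genes and 0.110 for all genes tested. The difference between the sides was not tested. Libraries of a genotype agreed closely for these genes: the median coefficient of variation was 3.57% in KO and 4.74% in WT, beside 5.71% in KO and 8.24% in WT over all genes tested.

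**Figure D2:**
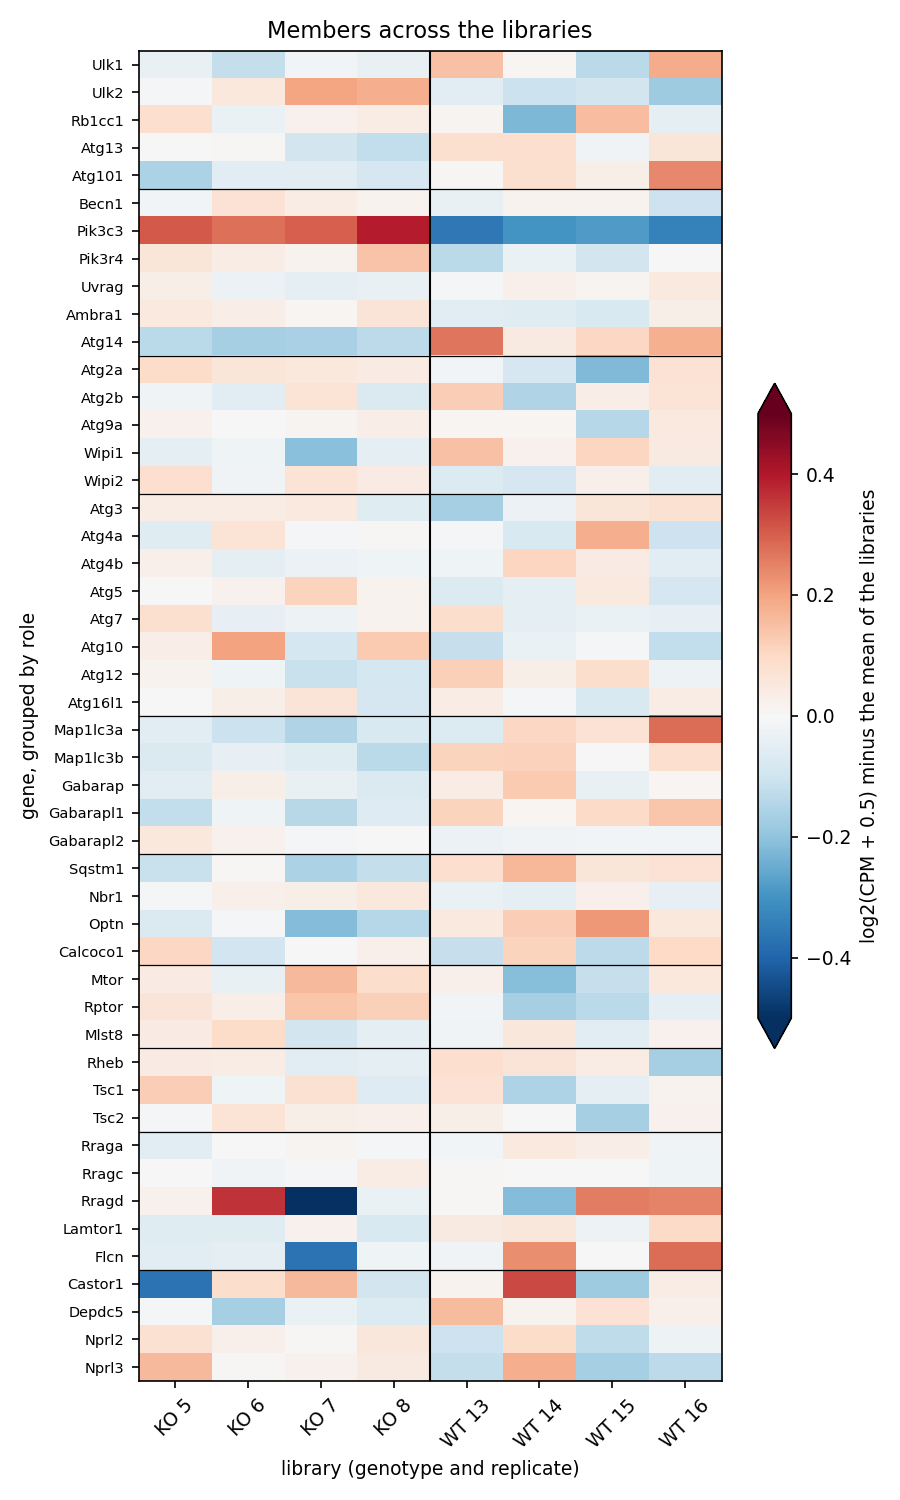
Each row is 1 of the 48 genes, grouped by role, and each column is 1 library, KO left of WT. Colour gives log2(CPM + 0.5) minus the gene's mean over the 8 libraries, with colours saturating at 0.5 in either direction. Pik3c3 is red in all 4 KO libraries and blue in all 4 WT libraries, and the rows of Gabarapl1, Optn and Atg14 are below their mean in all KO and above it in all WT libraries. Sqstm1 in KO replicate 6 and Map1lc3b in WT replicate 15 lie almost at the mean.

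Per transcript length, the authors' FPKM values (fragments scaled by transcript length and depth) spread over a range from 0.129 (Rragd) to 221 (Gabarap) as means of the 8 libraries. The most abundant transcripts were those of small ATG8 proteins, of a receptor and of an ULK subunit: Gabarap (221 FPKM), Sqstm1 (120 FPKM), Atg101 (104 FPKM) and Gabarapl2 (71.4 FPKM). The mTORC1 side was led by Lamtor1 (59.9 FPKM) and Rheb (48.3 FPKM). Its kinase gene Mtor was low at 6.69 FPKM, as were Rptor at 5.84 and Tsc1 at 3.58 FPKM. The least abundant besides Rragd were Ulk2 (2.46 FPKM), Castor1 (2.62 FPKM), Nprl3 (2.99 FPKM) and Depdc5 (3.09 FPKM).

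**Figure D3:**
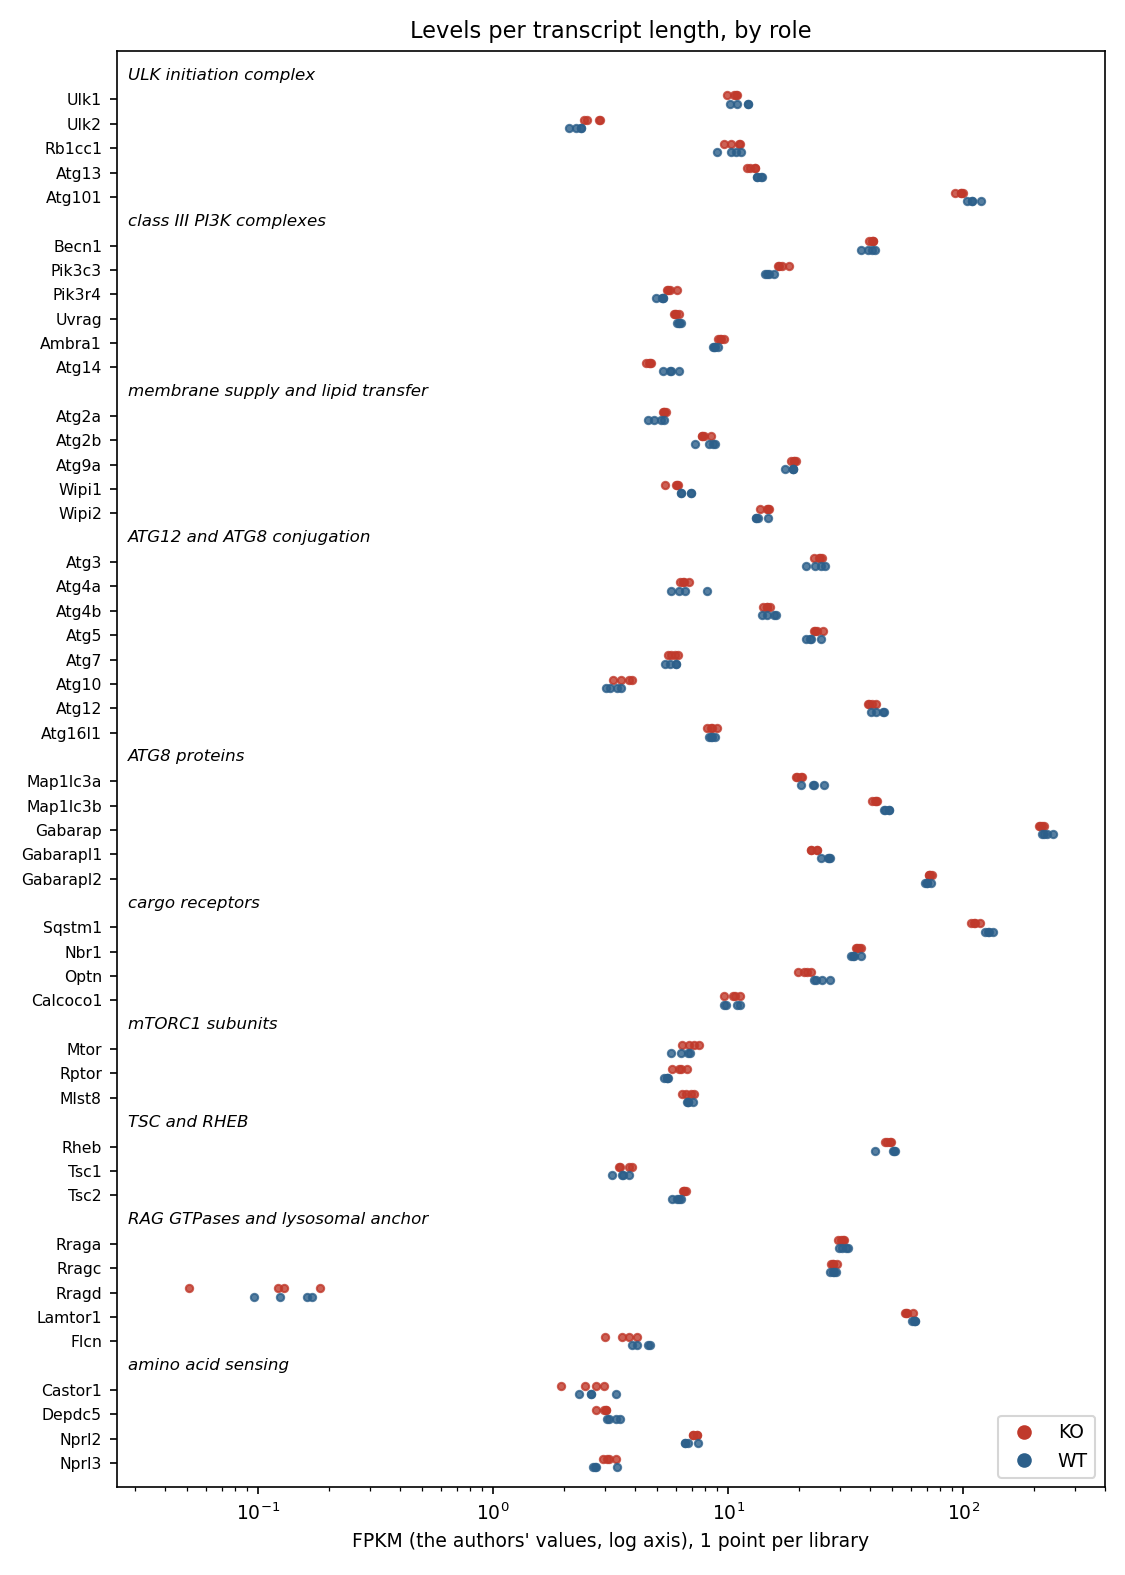
The authors' FPKM (log axis) of each gene in each library, 1 point per library, KO above WT within a gene, grouped by role. Gabarap, Sqstm1 and Atg101 are at the top of the range near or above 100 FPKM, and Rragd at its bottom near 0.1 FPKM.

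In the ULK complex, which starts autophagy, 1 of 5 genes was higher and 1 lower. That is 20% each way, beside 7.63% higher and 8.26% lower of all genes tested. Ulk2, the gene of the less studied paralogue of the ULK1 kinase, had 16.4, 17.1, 19.0 and 18.8 CPM (counts scaled to library size, by the trimmed mean of M-values) in KO libraries, against 15.9, 15.3, 15.5 and 14.5 CPM in WT libraries. Every KO library was above every WT library, although the lowest KO and the highest WT library lay close together. Ulk2 was higher in KO by 0.22 ± 0.06 on the log2 scale (SE, edgeR adjusted p = 0.0327). Atg101, which holds ATG13 and so the complex together, had 132, 142, 142 and 140 CPM in KO libraries, against 149, 156, 151 and 175 CPM in WT libraries. The groups did not overlap, and WT replicate 16 stood highest. Atg101 fell by 0.18 ± 0.05 on the log2 scale (SE, edgeR adjusted p = 0.0324). Leaving out 1 of KO replicates 7 and 8 and WT replicates 13, 14 and 16 ended the Ulk2 call (edgeR adjusted p = 0.0522 to 0.110). For Atg101 this was so for each KO library and for WT replicate 16 (0.0529 to 0.111). Both also ended with no low-count filter (0.0530 and 0.0541).

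Ulk1, the kinase that mTORC1 phosphorylates, stood at 63.3 ± 2.01 CPM in KO libraries, against 68.2 ± 6.80 CPM in WT ones (SD, n = 4; edgeR adjusted p = 0.306). WT replicate 15 was below every KO library, and without it Ulk1 was called lower at -0.17 (edgeR adjusted p = 0.0400). The scaffold gene Rb1cc1, which encodes FIP200, and Atg13 stood at 0.05 ± 0.07 and -0.10 ± 0.05 on the log2 scale (SE), and neither passed the test. In FPKM, Ulk2 reached 0.251 ± 0.0153 of the Ulk1 level in KO and 0.202 ± 0.0240 in WT (SD, n = 4). These ratios overlapped, at 0.229 in KO replicate 5 and 0.232 in WT replicate 15.

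In the class III PI3K complexes 1 of 6 genes was higher and 1 lower. That is 16.7% each way, beside 7.63% higher and 8.26% lower of all genes tested. Pik3c3, the gene of VPS34, the kinase that makes phosphatidylinositol 3-phosphate on the forming autophagosome and on endosomes, had 86.9, 85.0, 86.3 and 92.2 CPM in KO libraries, against 54.6, 56.9, 57.5 and 55.4 CPM in WT libraries. The groups were far apart relative to their spread. Pik3c3 was higher in KO by 0.64 ± 0.04 on the log2 scale, or 1.56-fold (SE, edgeR adjusted p = 1.47e-06). This was the tenth smallest adjusted p of the 14945 genes tested. A change of at least this size was found for 4.71% of the genes tested. The call held without each library in turn, with adjusted p between 2.59e-06 and 2.25e-05.

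The increase of Pik3c3 was much smaller per transcript length. The authors' FPKM was 16.2, 16.4, 16.9 and 18.2 in KO libraries, against 14.6, 15.0, 15.6 and 14.3 in WT libraries, a ratio of means of 1.14 where that of CPM was 1.56. All KO libraries were still above all WT libraries. With limma on log2(TPM + 1), an alternative chosen after seeing the data, the log2 fold change was 0.22 (adjusted p = 0.0133). That test called 2 of the 48 genes higher and 3 lower, beside 13.2% of all genes.

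Counts divided by FPKM and by the library total give a measure of the transcript length that the authors' scaling assumed. The depth used in that scaling is not stated, so the values serve to compare libraries and are not exact lengths. For Pik3c3 this implied length differed between the genotypes. It was 5329, 5087, 5126 and 5123 bases in KO libraries, against 3754, 3783, 3791 and 3781 bases in WT libraries. The 4 WT values were almost equal, and every KO value was far above all of them. The ratio was 1.37 for Pik3c3, while the ratios of the other 46 genes with at least 100 counts in every library lay between 0.973 and 1.01. A rule was then set, after seeing these values, of a length at least 1.3 times longer in KO with no overlap between the groups. It was met by 1 of 11217 genes (0.00892%), Pik3c3 itself, and in the other direction by 3 genes. The cut-off lies below the ratio already seen, so Pik3c3 was bound to meet it. By ratio alone Pik3c3 ranked number 6 of these genes, counted from the largest.

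The gene models of Pik3c3 differ between annotations of the same build, GRCm38. In the RefSeq annotation of GRCm38.p6, whose gene IDs the table uses (Gene ID 225326), Pik3c3 spans chromosome 18 from 30265615 to 30348126, and in GENCODE M21 it spans 30272747 to 30348126. The RefSeq gene thus begins 7132 bases before the GENCODE gene. GENCODE places a separate lincRNA gene on the same strand, AC102496.1, within that stretch, from 30267249 to 30272133. The 4 GENCODE transcripts of Pik3c3 are 2998 to 3257 bases long. They were not set against the implied lengths, whose scale in bases is not exact. The whole Rraga gene, for example, runs from 86575673 to 86577285 on chromosome 4. This span is shorter than its implied length of 1864 to 1865 bases. With counts per gene, reads from the stretch before the GENCODE start and reads from the kinase's coding exons cannot be told apart. The 1 other tested gene within 500 kb was not called.

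**Figure D4:**
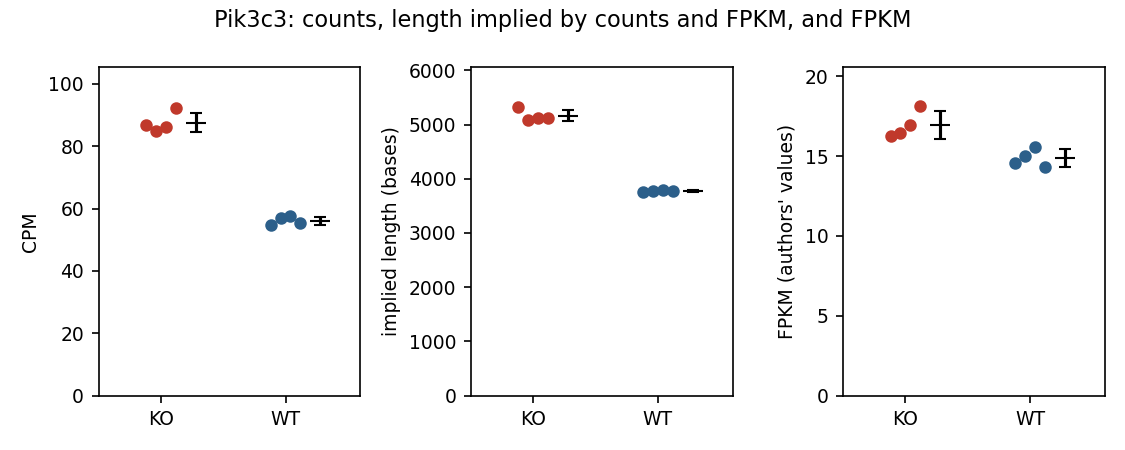
Pik3c3 in each library, KO left of WT, as CPM, as the transcript length implied by counts and FPKM (bases, for comparison between libraries only) and as the authors' FPKM. Points are libraries, and the bars beside them give the mean and SD of 4. CPM and implied length separate the genotypes widely (87.6 against 56.1 CPM in the mean), and FPKM by less (16.9 against 14.9).

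Atg14, which directs the VPS34 complex to autophagosome formation, was the most lowered gene of the 48. It had 18.6, 18.2, 18.3 and 18.6 CPM in KO libraries, against 24.7, 21.1, 22.0 and 23.2 CPM in WT libraries. The KO libraries were nearly equal and all below WT. Atg14 fell by 0.31 ± 0.06 on the log2 scale (SE, edgeR adjusted p = 0.00307), and the call held without each library in turn (0.00202 to 0.0131). Uvrag, which takes the place of ATG14 in the endosomal form of the complex, stood at 23.8 ± 0.571 CPM in KO libraries, against 24.5 ± 0.374 CPM in WT ones (SD, n = 4), with a log2 fold change of -0.04 ± 0.05 (SE) that did not pass the test. In FPKM, Atg14 reached 0.769 ± 0.0168 of the Uvrag level in KO and 0.923 ± 0.0702 in WT (SD, n = 4), with no overlap (at most 0.788 in KO, at least 0.854 in WT).

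The other subunits of the VPS34 complex did not pass the test. Becn1, the regulatory subunit Beclin 1, had a log2 fold change of 0.05 ± 0.04, Pik3r4, the kinase's VPS15 partner, 0.13 ± 0.05, and Ambra1, a Beclin 1 regulator, 0.08 ± 0.04 (SE). Every KO library was above every WT library for Pik3r4 (31.0 to 33.7 CPM in KO, 27.8 to 30.6 CPM in WT, edgeR adjusted p = 0.103). The FPKM of Pik3c3 was 2.99 ± 0.0788 times that of Pik3r4 in KO and 2.87 ± 0.128 times in WT (SD, n = 4), and these ratios overlapped.

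Genes of membrane supply and of the conjugation systems were near equal in both genotypes. None of the 5 genes of membrane supply and lipid transfer was called. Atg9a, the transmembrane lipid scramblase and the most abundant of them per length, had 85.1, 83.9, 84.7 and 85.9 CPM in KO libraries, against 84.3, 84.5, 76.0 and 86.7 CPM in WT libraries, and the groups overlapped. Wipi1, a reader of phosphatidylinositol 3-phosphate, was lower in every KO library (11.3 to 12.9 CPM in KO, 13.3 to 14.6 CPM in WT) but did not pass (edgeR adjusted p = 0.118, with a log2 fold change of -0.17 ± 0.07 SE). Its paralogue Wipi2, which recruits ATG16L1, and the lipid transfer protein genes Atg2a and Atg2b had log2 fold changes of 0.09, 0.12 and -0.04.

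None of the 8 conjugation genes was called, and their log2 fold changes lay between -0.11 (Atg12) and 0.15 (Atg10). Atg12, the ubiquitin-like protein joined to ATG5, had 122, 119, 112 and 113 CPM in KO libraries, against 131, 123, 128 and 119 CPM in WT libraries, and the groups overlapped. Atg16l1, which with ATG12 and ATG5 directs ATG8 to the membrane, stood at 30.5 ± 1.33 CPM in KO libraries, against 30.4 ± 1.13 CPM in WT ones (SD, n = 4; log2 fold change 0.0065 ± 0.05 SE). The E1-like enzyme gene Atg7 (0.02), the E2-like enzyme gene Atg3 (0.03), Atg5 (0.08) and the ATG8 protease genes Atg4a (0.0008) and Atg4b (-0.04) had changes that did not pass.

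Of the 5 ATG8 genes 2 were lower in KO and none higher. That is 40% lower, beside 8.26% of all genes tested, in a small group whose share was not tested. Map1lc3b, the gene of LC3B, the usual marker protein of autophagosomes, had 121, 123, 122 and 116 CPM in KO libraries, against 137, 138, 127 and 135 CPM in WT libraries. The groups did not overlap. Map1lc3b fell by 0.16 ± 0.04 on the log2 scale (SE, edgeR adjusted p = 0.0224). Gabarapl1, of the GABARAP branch, had 46.5, 49.9, 45.9 and 48.4 CPM in KO libraries, against 54.7, 50.9, 54.1 and 55.8 CPM in WT libraries. The groups again did not overlap, KO replicate 6 and WT replicate 14 being nearest. Gabarapl1 fell by 0.18 ± 0.05 (SE, edgeR adjusted p = 0.0239). Leaving out 1 of KO replicates 5, 7 and 8 and WT replicate 13 ended the Map1lc3b call (edgeR adjusted p = 0.0534 to 0.0975). For Gabarapl1 the same libraries and WT replicate 16 did so (0.0524 to 0.0840).

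The other ATG8 genes did not pass. Map1lc3a stood at 24.2 ± 0.720 CPM in KO libraries, against 27.8 ± 2.81 CPM in WT ones (SD, n = 4; edgeR adjusted p = 0.0593 at a log2 fold change of -0.20 ± 0.07 SE), and it was called lower without WT replicate 13 (0.0236) or with the DESeq2 Wald test (0.0405). Gabarap, the most abundant, had a log2 fold change of -0.07 ± 0.04 (SE). Gabarapl2 ran the other way without passing, at 80.6 to 84.0 CPM in KO and 79.3 to 80.1 CPM in WT. The 5 genes summed to 373 ± 4.23 FPKM in KO and 393 ± 9.37 FPKM in WT (SD, n = 4). Gabarap held 57.7% ± 0.643 of that sum in KO and 57.5% ± 1.22 in WT, Map1lc3b 11.3% ± 0.191 in KO and 12.0% ± 0.241 in WT, and Gabarapl2 19.4% ± 0.469 in KO and 17.9% ± 0.566 in WT. The ATG8 genes are similar copies, so the share of reads given to each is uncertain.

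Of the 4 cargo receptors 2 were lower and none higher. That is 50% lower, beside 8.26% of all genes tested, again in a small group whose share was not tested. Sqstm1, the gene of p62, which links ubiquitinated cargo to ATG8 proteins and is itself degraded with it, had 258, 280, 250 and 257 CPM in KO libraries, against 296, 313, 291 and 294 CPM in WT libraries. All KO libraries were below all WT libraries, with KO replicate 6 nearest to WT. Sqstm1 fell by 0.19 ± 0.04 on the log2 scale (SE, edgeR adjusted p = 0.00936), and the call held without each library in turn (0.00489 to 0.0430). Optn, the gene of optineurin, a receptor for mitochondria and bacteria, had 66.5, 69.5, 60.1 and 63.3 CPM in KO libraries, against 72.5, 76.3, 81.4 and 72.7 CPM in WT libraries. The groups did not overlap. Optn fell by 0.22 ± 0.06 (SE, edgeR adjusted p = 0.0148), a call that ended without KO replicate 7 (0.0578) or KO replicate 8 (0.0569).

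Nbr1, a receptor related in structure to p62, and Calcoco1, an ER-phagy receptor, stood at 0.05 ± 0.04 and 0.02 ± 0.07 on the log2 fold scale (SE) and did not pass. Sqstm1 held 62.4% ± 0.900 of the summed receptor FPKM in KO and 64.8% ± 0.946 in WT (SD, n = 4), with overlap (63.8% in KO replicate 6, 63.5% in WT replicate 15). Nbr1 held 19.9% ± 0.811 in KO and 17.5% ± 0.683 in WT. The summed FPKM of the 4 receptors was 180 ± 4.66 in KO and 198 ± 6.23 in WT, with no overlap (at most 186 in KO, at least 191 in WT).

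**Figure D5:**
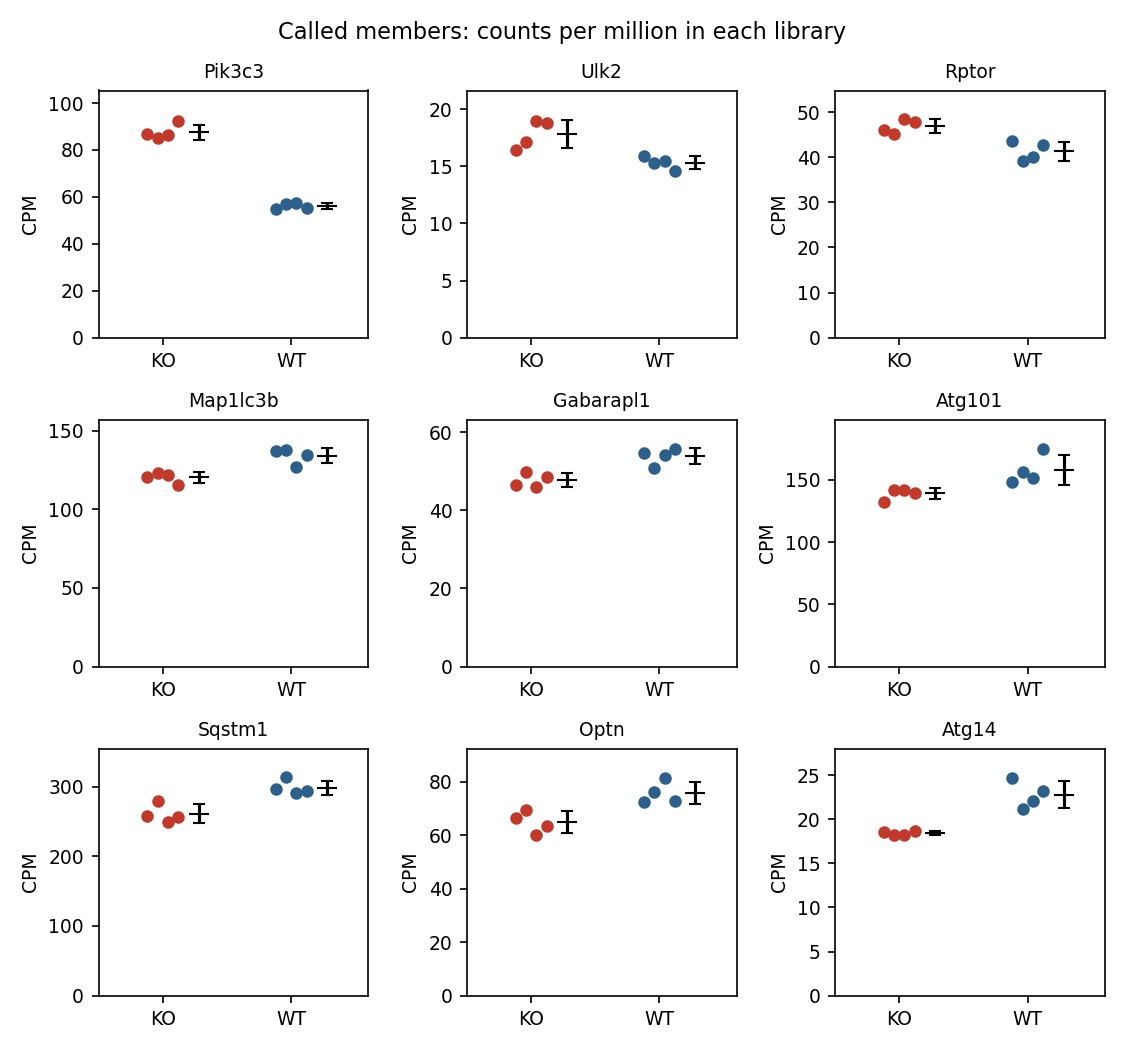
CPM in each library of the 9 genes that passed the test, 1 panel per gene, KO left of WT, ordered from the highest to the lowest log2 fold change, with the mean and SD of 4 libraries beside the points and axes from 0. The groups of Pik3c3 are far apart, and those of the other 8 genes are separated by small gaps.

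On the mTORC1 side Rptor was the 1 gene called. It encodes Raptor, the subunit that brings substrates to the kinase, and had 46.1, 45.1, 48.5 and 47.9 CPM in KO libraries, against 43.6, 39.2, 40.0 and 42.7 CPM in WT libraries. The groups did not overlap. Rptor was higher in KO by 0.18 ± 0.05 on the log2 scale (SE, edgeR adjusted p = 0.0254). It was no longer called when KO replicate 5, 7 or 8 or WT replicate 14 was left out (0.0516 to 0.0855). Mtor, the kinase, stood at 69.1 ± 4.04 CPM in KO libraries, against 63.5 ± 5.47 CPM in WT ones (SD, n = 4; edgeR adjusted p = 0.220 at a log2 fold change of 0.12 ± 0.06 SE), and Mlst8, its stabilizing subunit, at 26.5 ± 1.56 CPM in KO libraries, against 26.5 ± 0.896 CPM in WT ones.

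None of Rheb, Tsc1 and Tsc2 was called. Rheb, the GTPase that activates mTORC1, had 87.4, 87.1, 81.5 and 82.3 CPM in KO libraries, against 90.0, 88.6, 87.1 and 75.5 CPM in WT libraries, and the groups overlapped. Tsc1 and Tsc2, the complex that switches RHEB off, both had log2 fold changes of 0.06 (SE 0.06 and 0.05).

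Nor was any of the 5 genes of RAG GTPases and their anchor called. Lamtor1, which anchors the RAG scaffold to the lysosome, had 78.8, 78.6, 83.4 and 77.9 CPM in KO libraries, against 84.7, 85.4, 80.7 and 87.9 CPM in WT libraries. KO replicate 7 lay among the WT libraries, so the groups overlapped. Flcn, the folliculin gene, whose product acts on RAGC and RAGD, was lower in every KO library (12.0 to 15.4 CPM in KO, 15.5 to 19.1 CPM in WT) but did not pass (edgeR adjusted p = 0.0824 at a log2 fold change of -0.26 ± 0.09 SE), and was called without WT replicate 15 (0.0491). Rraga and Rragc were among the steadiest genes, Rraga at 56.6 ± 1.17 CPM in KO libraries, against 57.6 ± 1.35 CPM in WT ones, and Rragc at 84.7 ± 1.41 CPM in KO libraries, against 84.4 ± 0.718 CPM in WT ones (SD, n = 4). Rragd was close to the low-count filter, at 0.757, 1.09, 0.295 and 0.710 CPM in KO libraries and 0.743, 0.566, 0.979 and 0.972 CPM in WT libraries, and its log2 fold change of -0.18 ± 0.33 (SE) is imprecise.

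The amino acid sensing genes were also not called. Nprl2, of the GATOR1 complex that switches RAGA off when amino acids are scarce, had 12.6, 12.2, 12.0 and 12.4 CPM in KO libraries, against 11.1, 12.7, 10.9 and 11.7 CPM in WT libraries, and the groups overlapped. Its partners Nprl3 and Depdc5 stood at 0.11 ± 0.09 and -0.14 ± 0.05 on the log2 fold scale (SE). Every KO library was below every WT library for Depdc5 (25.3 to 28.1 CPM in KO, 28.7 to 31.7 CPM in WT; edgeR adjusted p = 0.100). Castor1, the arginine sensor, was low, at 4.59 ± 0.801 CPM in KO libraries, against 4.97 ± 0.813 CPM in WT ones (SD, n = 4).

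Sets of cell type markers moved with the genotype beside these genes. Of 13 absorptive colonocyte markers 10 rose and 1 fell (summed FPKM 4015 to 4294 in KO, 2505 to 2898 in WT). The 1 that fell was Aqp8, by 1.28 on the log2 scale, with overlap between the genotypes. All 16 mitosis genes fell (396 to 421 in KO, 502 to 562 in WT). Of 12 goblet cell markers 7 fell (105 to 136 in KO, 150 to 207 in WT). None was called higher, though 1 had a log2 fold change of 0.32. Over all genes tested 7.63% were higher and 8.26% lower. The epithelial genes Vil1, of the brush border protein villin, and Cdx2, an intestinal transcription factor, rose by 0.25 ± 0.05 and 0.33 ± 0.04 on the log2 scale (SE). The part of all these markers in the changes of autophagy and mTORC1 genes was not tested, and fewer cells of a type and less RNA per cell cannot be told apart in bulk RNA.

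Among lists of other genes of the same pathways, 1 had a share called above the 15.9% of all genes tested, that of mTORC2, PI3K and AKT genes. Of 30 tested further autophagy genes 3 rose and 1 fell (13.3% called, median log2 fold change 0.0086). Ncoa4, the receptor that brings ferritin to autophagosomes, rose by 0.25 ± 0.04 on the log2 scale to 358 ± 6.89 CPM in KO, against 301 ± 16.4 CPM in WT (SD, n = 4; edgeR adjusted p = 0.00144). Vps41, of the HOPS tethering complex, rose by 0.18 ± 0.04, and Epg5, another tether, by 0.23 ± 0.07, while Atg16l2, a paralogue of Atg16l1, fell by 0.32 ± 0.08 (SE). The Epg5 libraries overlapped between genotypes and its call was not made by limma-voom (adjusted p = 0.0588). Leaving out any library but KO replicate 6 and WT replicate 15 also ended the Epg5 call (edgeR adjusted p = 0.0551 to 0.139). Vps41 was not called when KO replicate 8 (0.0595) or WT replicate 13 (0.0530) was left out, nor Atg16l2 when KO replicate 6 (0.0563) or 8 (0.0568) was. Of 14 mitophagy and ER-phagy genes 2 rose and none fell (14.3% called), among them Ccpg1, an ER-phagy receptor, by 0.26 ± 0.06 on the log2 scale (SE, edgeR adjusted p = 0.00558).

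Of 33 tested further mTORC1 genes 2 rose and 3 fell (15.2% called, median log2 fold change -0.0043). Rps6, the ribosomal protein phosphorylated downstream of mTORC1, fell by 0.22 ± 0.03 to 1088 ± 26.0 CPM in KO, against 1265 ± 20.9 CPM in WT (SD, n = 4; edgeR adjusted p = 6.65e-04). Eif4ebp1, the translation repressor that mTORC1 phosphorylates, fell by 0.36 ± 0.06 (edgeR adjusted p = 0.00146), and Sesn3, of the sestrin family of leucine sensors, by 0.29 ± 0.07. Castor2, the paralogue of the arginine sensor, rose by 0.42 ± 0.10 at 6.22 ± 0.320 CPM in KO libraries, against 4.66 ± 0.477 CPM in WT ones (SD, n = 4), and Sesn1, named after its values were seen, rose by 0.23 ± 0.06. Rragb, the near copy of Rraga, had 0 counts in all 8 libraries, which allows at most 0.0807 CPM in the shallowest. The share of reads given to each of these near copies is uncertain.

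Of 11 tested genes of mTORC2, PI3K and AKT 2 rose and 2 fell (36.4% called). Mapkap1 (0.15 ± 0.04), a subunit of mTORC2, was among those that rose, while Pik3ca (-0.16 ± 0.05), a PI3K catalytic subunit, and the kinase gene Akt2 (-0.15 ± 0.05) fell (log2 fold change ± SE). Each of these 3 calls ended when any of several single libraries was left out, with edgeR adjusted p up to 0.0695 for Mapkap1, 0.127 for Pik3ca and 0.159 for Akt2. Of 10 genes of AMPK and its activator LKB1, which restrain mTORC1 when energy is low, 1 rose, Prkaa2, a catalytic subunit, by 0.34 ± 0.08 (edgeR adjusted p = 0.00862), with overlap between the genotypes. None of 5 genes of the MiT/TFE factors, which drive lysosomal and autophagy genes, and of their partners was called. Tfe3 stood at 42.0 ± 0.734 CPM in KO libraries, against 45.9 ± 2.74 CPM in WT ones, and Mcoln1, a lysosomal calcium channel, at 23.9 ± 1.37 CPM in KO libraries, against 21.4 ± 0.812 CPM in WT ones (SD, n = 4; edgeR adjusted p = 0.108 and 0.0703). Tfe3 was called lower without WT replicate 15 (-0.16, edgeR adjusted p = 0.0258), and Mcoln1 higher with limma on log2(TPM + 1) (0.19, adjusted p = 0.0422).

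Promoters of these genes were searched for the E-box that MiT/TFE factors bind, because those factors link lysosomal signalling to autophagy genes. The RefSeq promoter table (GRCm38.p6, 250 bases before to 50 after 1 transcript start) held 42 of the 48 genes. That start can lie inside the RefSeq gene model, by 17 bases for Atg5, 242 bases for Ulk2 and 27969 bases for Atg7, and it is the model's own start for the other genes whose sites are given. Distances are counted from the table's start. It had no entry for Pik3c3, Atg12, Atg16l1, Becn1, Map1lc3a and Rb1cc1. The 6-base motif CACGTG, which reads the same on both strands, was found in 7 of the 42 promoters (16.7%), beside 8.09% of all 27025 genes in the table and 11.6% of the 10901 of them that were tested. The 10-base palindromic CLEAR element, which contains it, was in 0 of the 42 promoters, beside 0.761% of the tested genes. Of the 8 called genes with an entry 1 had the E-box, Atg14. Each site is given 5′ to 3′ on the gene's strand with 20 bases on either side and the E-box in capitals, so that the site of the lowered gene Atg14, which lies across that start, can be set beside those of genes that did not pass the test.
Atg14 (chr14:47568410-47568455, minus strand, E-box from 1 base before the table's start): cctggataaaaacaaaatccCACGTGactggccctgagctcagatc
Atg3, first site (chr16:45158715-45158760, plus strand, 94 bases before): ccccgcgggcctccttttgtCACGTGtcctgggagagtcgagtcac
Atg3, second site (chr16:45158738-45158783, plus strand, 71 bases before): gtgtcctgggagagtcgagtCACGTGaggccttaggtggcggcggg
Atg5 (chr10:44268305-44268350, plus strand, 14 bases before the table's start, which is inside the gene model): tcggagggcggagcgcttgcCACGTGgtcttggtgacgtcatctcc
Atg7 (chr6:114670944-114670989, plus strand, 132 bases before the table's start, which is far inside the gene model): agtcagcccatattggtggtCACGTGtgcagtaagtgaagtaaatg
Rheb (chr5:24842432-24842477, minus strand, 96 bases before): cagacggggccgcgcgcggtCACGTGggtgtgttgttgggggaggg
Rragc (chr4:123917301-123917346, plus strand, 112 bases before): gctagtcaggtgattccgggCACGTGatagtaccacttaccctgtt
Lamtor1 (chr7:101905749-101905794, plus strand, 68 bases before): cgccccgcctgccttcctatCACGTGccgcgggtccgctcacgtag

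The log2 fold changes of the genes with this E-box were -0.31 for Atg14, 0.03 for Atg3, 0.08 for Atg5, 0.02 for Atg7, -0.01 for Rheb, 0.0054 for Rragc and -0.09 for Lamtor1. A match is a description of the letters and not a site of binding. The antioxidant response motif TGACNNNGC was searched on both strands because Sqstm1 is a known target of the factor NRF2 that binds such elements. The motif was in 4 of the 42 promoters (9.52%), beside 14.0% of all genes in the table and 16.9% of the tested ones. It was found in Map1lc3b, which fell, and in Ulk2, which rose, and not in the window of Sqstm1. These matches are shown in capitals with the same flanks, and neither promoter held the E-box. The other matches were in Atg13 and Rheb.
Map1lc3b (chr8:121590422-121590470, plus strand, 4 bases after the table's start): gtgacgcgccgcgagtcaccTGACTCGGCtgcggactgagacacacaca
Ulk2 (chr11:61855081-61855129, minus strand, 17 bases before the table's start, which is inside the gene model): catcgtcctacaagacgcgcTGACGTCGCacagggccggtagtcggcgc

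The 48 genes lie on 19 chromosomes and 10 of them overlap another protein-coding gene in the RefSeq annotation. Of the 9 called genes 1 does, Map1lc3b, which overlaps Zcchc14. The use of strand in counting is not known here, so reads of the overlap could have been given to either or to none. Gabarapl1 and Rptor overlap the non-coding genes 1700101I11Rik and Rptoros.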

How the data were processed

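RNA was sequenced from 8 organoid libraries (4 KO, 4 WT). Per the labels' protocols, 1 µg of RNA with integrity above 7.0 went into a stranded poly(A) kit. The submitters' processing notes name TopHat2, TopHat, Bowtie2, HTSeq and GRCm38, with no versions or settings. The authors deposited whole-number counts per gene, with FPKM and TPM beside them, in 1 table. The strand setting of the counting is not stated there. The TPM columns sum to 999972 to 999988.

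The deposited counts were tested with edgeR 4.0.16 (quasi-likelihood, TMM scaling, filterByExpr, R 4.3.3) on all 14945 genes that passed the filter, with Benjamini-Hochberg adjustment over all of them at 0.05. SEs are the log2 fold change divided by the square root of F. Totals were 37182098 to 49256171 counts per library. Scatter between libraries exceeded counting noise, so depth alone does not set the precision. On simulated counts for this comparison (14776 genes run) the test recovered 56% of genes changed 1.25-fold, 74% at 1.5-fold and 86% at 2-fold. The changed genes were drawn at random from all genes tested. These rates are therefore not specific to the 48 genes, whose libraries scattered less. Changes under 1.25-fold, as seen in all of the 48 genes but Pik3c3, were not simulated. A gene that was not called may therefore still differ slightly. FPKM was used for levels between genes. The implied length is counts over library total and FPKM, centred on the median gene of each library. DESeq2 1.42.0, limma-voom and limma 3.58.1 on log2(TPM + 1), other scalings and filters, counts halved and each library left out were alternatives. Libraries of a genotype differed by more than counting noise (chi-square per degree of freedom 4.94 to 10.7 within KO, 11.1 to 24.9 within WT), so none was treated as a second deposit of another. This does not show that they came from separate animals.

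The genes and lists were chosen with earlier results of these data known. Values in every library are given for each gene that passed, and in roles where none did for the gene of highest mean FPKM. From each other list up to 4 genes of smallest adjusted p are named, or the 2 of highest FPKM where none passed. Sesn1 was named after its values were seen. Some genes that this rule picks are not reported here.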

Additional observations from a re-analysis of the deposited data

Results flagged for a closer look

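In 7 of 96 groups of 4 libraries (48 genes in KO and in WT) 1 library stood apart, its gap to the nearest other divided by the group's range being above Dixon's 95% critical value. Chance gives about 1 group in 20. Wipi1 stood at 11.3 CPM in KO replicate 7, against 12.7 to 12.9 CPM in the other KO libraries. Flcn stood at 12.0 CPM in KO replicate 7, against 15.0 to 15.4 CPM in the others, and Lamtor1 at 83.4 CPM in the same library, against 77.9 to 78.8 CPM. Atg3 stood at 53.6 CPM in KO replicate 8, against 57.3 to 57.8 CPM. Atg7 stood at 26.1 CPM in WT replicate 13, against 23.8 to 24.0 CPM, Nprl3 at 11.3 CPM in WT replicate 14, against 8.77 to 9.06 CPM, and Tsc2 at 38.3 CPM in WT replicate 15, against 43.0 to 43.9 CPM. None of these 7 genes passed the test between genotypes.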

How the results depend on the processing

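Pik3c3, Atg14 and Sqstm1 kept direction and call without each library and under every alternative at 0.05. At an adjusted p of 0.01 the 48 genes gave 1 higher and 2 lower (562 and 597 over all genes). Leaving out 1 library gave 1 to 3 genes higher and 2 to 8 lower of the 48, and 696 to 1386 higher and 724 to 1404 lower over all genes. Without KO replicate 7, or without KO replicate 8, 1 was higher and 2 were lower. Without KO replicate 5, 3 were lower, and without WT replicate 14, 1 was higher. With limma on log2(TPM + 1), chosen after seeing the data, 3 were lower (777 over all genes). The cause was not tested. That test ended the calls of Ulk2 (adjusted p = 0.0828), Atg101 (0.0701), Gabarapl1 (0.0551) and Optn (0.0552). Signs reversed among genes near 0: Mlst8 was at 0.00025 with library totals alone, 0.00021 with no filter and 0.025 on TPM, Rheb at 0.023 and Rraga at 0.0059 on TPM. Over libraries left out in turn, log2 fold changes ran between -0.014 and 0.11 for Rb1cc1, -0.0050 and 0.058 for Atg9a, -0.019 and 0.059 for Atg3, -0.032 and 0.069 for Atg4a, -0.0083 and 0.049 for Atg7, -0.018 and 0.036 for Atg16l1, -0.026 and 0.060 for Calcoco1, -0.035 and 0.027 for Mlst8, -0.066 and 0.014 for Rheb, -0.0046 and 0.013 for Rragc, -0.47 and 0.078 for Rragd and -0.19 and 0.0072 for Castor1. The stricter filter gave no value for Rragd and Castor1. No paired analysis was possible because the genotypes share no replicate number. Depth limits Rragd most, at 14 counts in its lowest library.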
